A study of Mus musculus with 7 samples.

Results

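The 35 genes described here make, regulate or move cholesterol and fatty acids, and most are known targets of the SREBP transcription factors. They were chosen by symbol from their known roles, and all 35 were found among the 17537 genes of the deposited table. By role they comprise 18 enzymes of the mevalonate and sterol pathway, 5 regulators of SREBP, 10 enzymes of fatty acid synthesis and 2 genes of sterol transport. Each of the 35 exceeded 1 CPM (a read count scaled to the size of its library) in every library, so that none was lost to the filter that left 13976 genes for testing.

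RNA was from kidneys of male C57BL/6 mice, per the labels, aged 8 to 10 weeks at the start; the study's methods give both sexes. Nondiabetic controls (C, 3 libraries, replicates 2, 8 and 9) received no streptozotocin. DM-22 mice (2 libraries) were made diabetic with streptozotocin, a toxin of insulin-producing beta cells, at 60 mg/kg on 5 days, and stayed untreated until week 22. DM+SGLT2i mice (2 libraries) received the same toxin and, from week 16 and for 6 weeks, dapagliflozin at 25 mg/kg in the drinking water. Dapagliflozin inhibits SGLT2, the glucose transporter of the proximal tubule, and so lets glucose leave in the urine. The comparison of DM-22 with C asks how kidney expression differs in lasting hyperglycemia, and that of DM+SGLT2i with DM-22 asks how it differs once glucose has been lowered. No library of treated nondiabetic mice was analysed here, and both diabetic groups share the toxin. Whole renal tissue was sequenced, so that fewer cells of a type and less RNA per cell cannot be told apart.

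Cells build cholesterol from acetyl-CoA through mevalonate, squalene and lanosterol, and build fatty acids from the same precursor through acetyl-CoA carboxylase and fatty acid synthase. The SREBP proteins are held in the endoplasmic reticulum by SCAP and the INSIG proteins while sterols are plentiful. When sterols are scarce, SCAP escorts SREBP to the Golgi, where it is cut and released to the nucleus. There SREBP-2 (Srebf2) acts mainly on sterol genes and SREBP-1 (Srebf1) mainly on fatty acid genes, and in liver insulin raises the transcription of Srebf1.

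Each library held between 46456125 and 56541594 reads on listed genes, and no member had fewer than 488 reads in any library. Several libraries stood apart in their members or markers. C replicate 2 was over 1.5-fold above both other controls for 7 members (Fdps, Fdft1, Sqle, Cyp51, Msmo1, Scd2 and Elovl6) and over 1.5-fold below both for 3 (Sc5d, Fads2 and Me1). In the same library the 8 proximal tubule markers summed to 7850 CPM, against 17482 and 15204 CPM in C replicates 8 and 9, and DM-22 replicate 1 had 8376 CPM against 17189 CPM in DM-22 replicate 2. The 3 thick ascending limb markers summed to 12527 CPM in DM-22 replicate 1 and to between 2948 and 6631 CPM in the other 6 libraries. The 8 measured adipocyte markers of 9 listed summed to 1706 CPM in DM+SGLT2i replicate 1 and to between 44.6 and 91.7 CPM elsewhere, with Adipoq, which encodes adiponectin, at 76.0 CPM there and at most 3.31 CPM in any other library. The 5 adrenal cortex markers found, of 8 listed, summed to 7.82 CPM or less. Of the clock genes, Arntl lay between 1.21 and 1.77 CPM in the controls, at 6.48 and 19.4 CPM in DM-22 and at 5.07 and 8.69 CPM in DM+SGLT2i. Kidney identity was plain in every library, with Umod of the thick ascending limb at 2337 CPM or more and Slc34a1 of the proximal tubule at 2841 CPM or more. The part of tubule composition, fat, or clock phase in the results below was not tested.

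**Figure D1:**
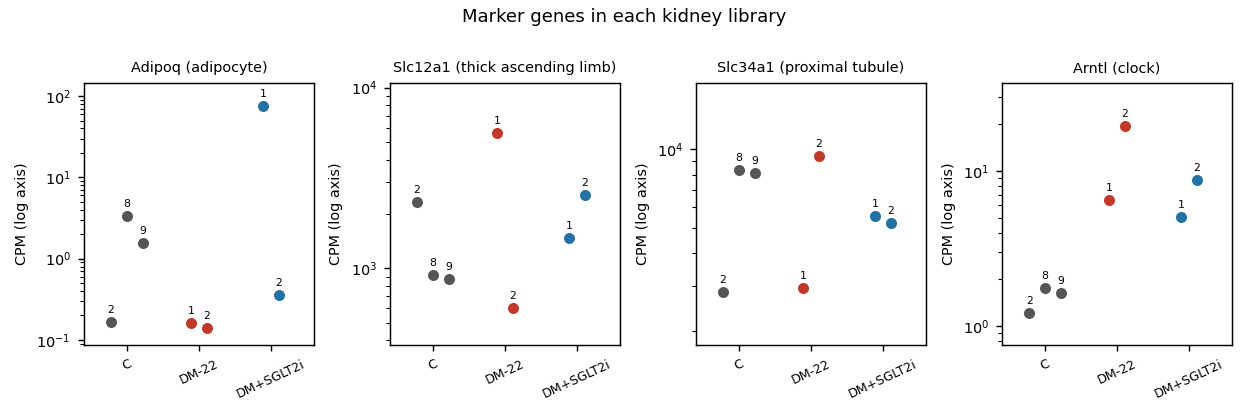
Levels of 4 marker genes in CPM on log axes, 1 point per library labelled with its replicate number. Adipoq is at 76.0 CPM only in DM+SGLT2i replicate 1, Slc12a1 is at 5580 CPM in DM-22 replicate 1 against 602 CPM in DM-22 replicate 2, Slc34a1 is low in C replicate 2 and DM-22 replicate 1, and Arntl is higher in all 4 diabetic libraries than in the controls.

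In the controls the levels of the 35 genes spanned a wide range. Per kilobase of exon sequence, the highest mean level was that of Me1, the malic enzyme that supplies NADPH for lipid synthesis, at 163 CPM per kilobase. Hmgcs1, which joins acetyl-CoA units at the start of the mevalonate pathway, followed at 124 CPM per kilobase. The lowest were Acaca, the acetyl-CoA carboxylase, at 2.45 CPM per kilobase, Lss, the lanosterol synthase, at 2.87, and Abca1, the cholesterol exporter, at 3.94.

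Of the 18 sterol enzymes, 15 had a log2 fold change below 0 in DM-22 kidneys compared to controls, against 49.3% of all genes tested, and 12 had one without C replicate 2, against 49.4%. No member passed the adjusted threshold. Stard4, Insig1 and Hmgcs1 had the smallest p among members in DM-22 compared to C. They were lower in both DM-22 libraries than in all other libraries, at ratios of group means to the controls of 0.633, 0.497 and 0.686. Dhcr7, Hsd17b7, Fasn and Lss were also lowest in both DM-22 libraries. That order already places DM+SGLT2i above DM-22, and the share of all genes with it was not counted. In DM+SGLT2i kidneys Stard4, Insig1 and Hmgcs1 were at ratios of 1.02, 0.967 and 0.947 to the controls. Dhcr7, Hsd17b7, Fasn and Lss were at 1.11, 1.07, 1.31 and 1.03. With an adjusted p under 0.05 (limma, Benjamini-Hochberg over 13976 genes), 0 of 35 members were called in each of the 3 comparisons, as were 0% of all genes. Without C replicate 2, 0.0143% of all genes (2 genes) passed it in DM-22 compared to C and 0.122% (17 genes) in DM+SGLT2i compared to C, with 0 members in either. Counts at an unadjusted p under 0.05 are therefore given as a description, to be read against the share of all genes that reached it.

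In DM-22 compared to C, 25 of the 35 members had a log2 fold change below 0, and the median was -0.17, against 0.00 (0.00447) over all genes tested. At an unadjusted p under 0.05, 4 members (11.4%; Hmgcs1, Insig1, Sc5d and Stard4) were lower, against 3.28% of all genes, and 0 were higher, against 1.19%. Groups did not overlap for 9 lower members (25.7%; Dhcr7, Fasn, Hmgcs1, Hsd17b7, Idi1, Insig1, Lss, Sc5d and Stard4), against 9.29% of all genes, and for 3 higher ones (8.57%; Ebp, Insig2 and Scap), against 10.8%. These shares depended on C replicate 2. Without it the same 4 members were lower at an unadjusted p under 0.05, but so were 14.8% of all genes. Likewise, 10 members (28.6%) then lay below the controls without overlap, against 29.5% of all genes, and 7 (20%) lay above, against 29.9%. Fewer controls make a lack of overlap more frequent, whichever control is left out. With C replicates 8 and 9 as the only controls, the members' shares were thus not above those of the genes at large. Without C replicate 8, 3 members (8.57%) were lower at an unadjusted p under 0.05, against 1.75% of all genes. Without C replicate 9 there were 4 (11.4%), against 0.98%. The smallest adjusted p among members (limma) was 0.804 with all controls and 0.0826 without C replicate 2, the lowest over the 14 alternatives tried, in which it reached up to 0.9998.

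In DM+SGLT2i compared to DM-22, 25 of the 35 members had a log2 fold change above 0, and the median was 0.32, against 0.00451 over all genes. At an unadjusted p under 0.05, 7 members (20%; Dhcr7, Elovl6, Fasn, Hmgcs1, Hsd17b7, Insig1 and Stard4) were higher, against 2.25% of all genes, and 0 were lower, against 1.66%. Groups did not overlap for 14 higher members (40%; those 7 and Fads1, Fdps, Lss, Msmo1, Nsdhl, Sqle and Srebf2), against 21.4% of all genes, and for 1 lower member (Insig2), against 20%. For 2 of the 14 the groups were barely apart. Sqle was at 113.9 CPM in DM+SGLT2i replicate 1 and 113.7 CPM in DM-22 replicate 1. Srebf2 was at 140.5 CPM in DM+SGLT2i replicate 1 and 140.3 CPM in DM-22 replicate 2. C replicate 2 enters this comparison only through the shared estimate of the spread. Without it 10 members (28.6%; the 7 and Fdps, Lss and Msmo1) were higher at an unadjusted p under 0.05, against 6.86% of all genes. Without DM+SGLT2i replicate 1, the library with adipocyte markers, 2 members (5.71%; Hsd17b7 and Stard4) remained, against 0.315% of all genes. Without DM+SGLT2i replicate 2 there were 2 (5.71%; Fasn and Stard4), against 2.72% of all genes. Without DM-22 replicate 1 there were 3 (8.57%; Cyp51, Scd1 and Stard4), against 3.56%, of which only Stard4 was among the 7. The smallest adjusted p among members (limma) was 0.881 with all libraries and between 0.376 and 0.9999 over 15 alternatives. DM-22 libraries enter both comparisons, so that a low level there appears in each.

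Compared to C, the median log2 fold change of members in DM+SGLT2i was 0.07, against -0.01 over all genes, and 24 of 35 were above 0. Only Fads1 (2.86% of members) was higher at an unadjusted p under 0.05, against 0.665% of all genes, and 0 members were lower, against 0.415%. Groups did not overlap for 5 higher members (14.3%; Acat2, Elovl6, Fads1, Scap and Srebf2), against 5.67% of all genes, and for 0 lower ones, against 6.59%. Srebf2 was barely apart, at 140.5 CPM in DM+SGLT2i replicate 1 and 140.2 CPM in C replicate 8. Without C replicate 2, 4 members (11.4%) were higher (Elovl6, Fads1, Fdps and Msmo1), against 8.73% of all genes. In that fit 2 (5.71%) were lower (Me1 and Sc5d), against 9.14%. The smallest adjusted p among members was 0.9997 with all controls and 0.0685, for Elovl6, without C replicate 2 (limma), the lowest of 14 alternatives.

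**Figure D2:**
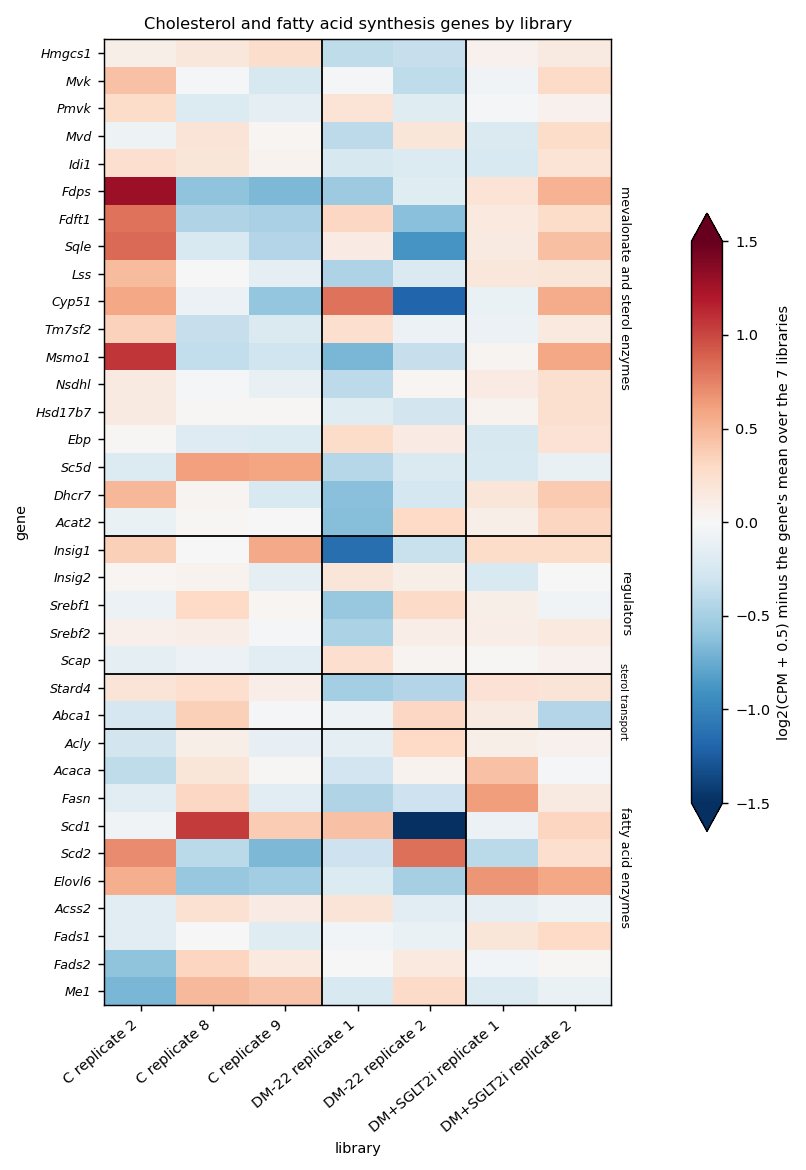
Heat map of the 35 genes (rows, by role) in the 7 libraries (columns), as log2(CPM + 0.5) minus the gene's mean over all libraries; red is above and blue below that mean. Both DM-22 columns are mostly blue among the sterol enzymes, with medians of -0.31 and -0.22, DM+SGLT2i replicate 2 is mostly red, and C replicate 2 differs from the other 2 controls.

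The level of the whole gene list was lowest in the 2 DM-22 libraries. Relative to each gene's mean over the 7 libraries, the median member stood at -0.23 and -0.18 on the log2 scale in DM-22 replicates 1 and 2. In C replicates 2, 8 and 9 it stood at 0.09, 0.02 and -0.12, and in DM+SGLT2i replicates 1 and 2 at 0.07 and 0.21. The median of all genes stayed between -0.014 and 0.014 in every library. DM-22 replicate 1 held the lowest value of 14 members and DM-22 replicate 2 that of 7, whereas C replicate 2 held the highest value of 10 members. The share of all genes with their lowest or highest value in each library was not counted, so these counts may not be particular to the list.

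Among the regulators, Insig1 differed most between the groups, whereas its homologue Insig2 did not follow it. Insig1, an endoplasmic reticulum anchor of SCAP and itself an SREBP target, lay at 79.2, 61.5 and 91.7 CPM in C replicates 2, 8 and 9. It was at 28.0 and 49.0 CPM in the DM-22 libraries and at 74.8 and 75.0 CPM in the DM+SGLT2i libraries. The DM-22 libraries were below all others, and the treated libraries lay within the range of the controls. The log2 fold change was -1.03 ± 0.27 (SE) in DM-22 compared to C (limma, unadjusted p = 0.00728, adjusted p = 0.804) and 1.01 ± 0.30 in DM+SGLT2i compared to DM-22 (limma, unadjusted p = 0.0127, adjusted p = 0.881). Its size depended on which DM-22 library was kept, at -1.43 without replicate 2 and -0.64 without replicate 1 in DM-22 compared to C. Insig2, whose transcription is not driven by SREBP in the same way, lay between 40.2 and 45.6 CPM in C, at 49.9 and 46.7 CPM in DM-22 and at 37.5 and 44.3 CPM in DM+SGLT2i. Its log2 fold change in DM-22 compared to C was 0.15, with a 95% interval from -0.18 to 0.48.

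The transcripts of the SREBP proteins and of SCAP varied less than Insig1. Srebf2 lay between 128 and 140 CPM in C, at 94.1 and 140 CPM in DM-22 and at 141 and 145 CPM in DM+SGLT2i. Its low value was confined to DM-22 replicate 1, and DM-22 replicate 2 was level with the controls. Srebf1 showed the same split, at 43.8 CPM in DM-22 replicate 1 and 79.3 CPM in replicate 2, against 61.2, 80.0 and 66.0 CPM in C and 68.9 and 62.7 CPM in DM+SGLT2i. DM-22 replicate 1 is also the library with the high thick ascending limb markers. Scap lay between 124 and 130 CPM in C, at 166 and 143 CPM in DM-22 and at 141 and 146 CPM in DM+SGLT2i, so that all 4 diabetic libraries were above all 3 controls. The log2 fold change of Scap was 0.28 ± 0.13 (SE) in DM-22 (limma, adjusted p = 0.804) and 0.17 ± 0.13 in DM+SGLT2i (limma, adjusted p = 0.9997), each compared to C.

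**Figure D3:**
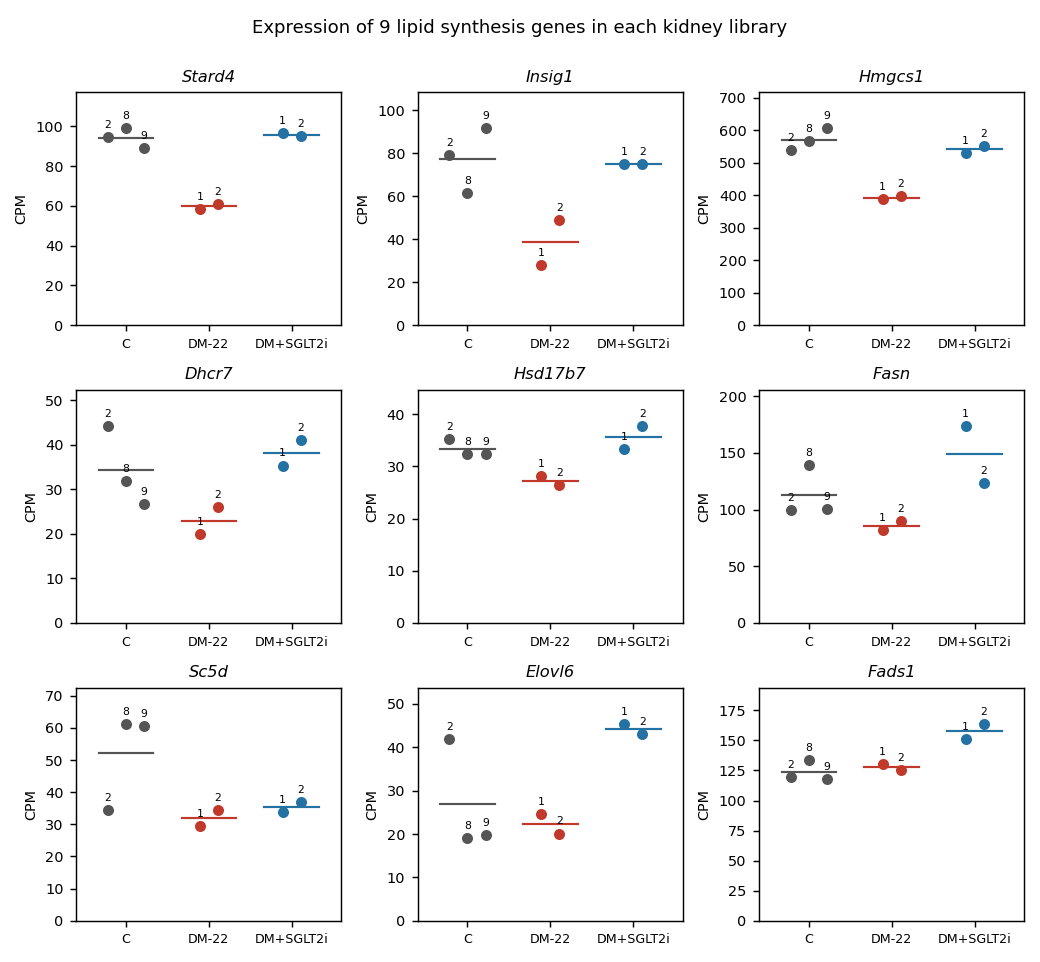
Expression in CPM of 9 of the genes, 1 point per library labelled with its replicate number and a line at each group's mean. Stard4 is at 58.4 and 61.1 CPM in DM-22 and between 89.1 and 99.2 CPM in the other 5 libraries; Insig1, Hmgcs1, Dhcr7, Hsd17b7 and Fasn are also lowest in the 2 DM-22 libraries, while Sc5d is low in C replicate 2 and in all 4 diabetic libraries, and Elovl6 is high in C replicate 2 and in both treated libraries.

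Stard4, which carries cholesterol between membranes and is a target of SREBP-2, had the smallest p of all members in both comparisons with DM-22. It lay at 94.9, 99.2 and 89.1 CPM in C, at 58.4 and 61.1 CPM in DM-22 and at 96.6 and 95.1 CPM in DM+SGLT2i. Group means were 94.4 ± 5.07 (SD, n = 3), 59.8 ± 1.92 (SD, n = 2) and 95.9 ± 1.06 CPM (SD, n = 2). The gap between DM-22 and either other group was several times the spread within groups. In DM-22 compared to C, the log2 fold change was -0.65 ± 0.12 (SE) (limma, unadjusted p = 0.00105, adjusted p = 0.804) and 0.68 ± 0.13 in DM+SGLT2i compared to DM-22 (limma, unadjusted p = 0.00143, adjusted p = 0.881). Between DM+SGLT2i and C it was 0.02, with a 95% interval from -0.26 to 0.31. The other transport gene, Abca1, is induced by LXR, and it showed no such pattern. It lay at 33.1, 50.4 and 38.8 CPM in C, at 37.2 and 49.0 CPM in DM-22 and at 43.3 and 28.8 CPM in DM+SGLT2i, so that all groups overlapped. Mylip, another gene induced by LXR that is described below, was lower in both DM-22 libraries than in all others. It was not typical of its list. Of the 12 genes of sterol handling and LXR, 8 (66.7%) had a log2 fold change above 0 in DM-22 compared to C. The share of all genes was 50.7%. Abcg1 was among these 8, at 0.80. The part of SREBP or LXR in these differences was not tested.

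Among the 18 mevalonate and sterol enzymes, the median log2 fold change was -0.27 in DM-22 compared to C, with the 15 of 18 below 0 given above. Between DM+SGLT2i and DM-22 it was 0.37, with 16 of 18 above 0 against 50.6% of all genes, and in DM+SGLT2i compared to C it was 0.10. In the first comparison 2 of the 18 were lower at an unadjusted p under 0.05 (11.1%; Hmgcs1 and Sc5d), against 3.28% of all genes, and in the second 3 were higher (16.7%; Dhcr7, Hmgcs1 and Hsd17b7), against 2.25%. In the third there were 0, against 0.665% of all genes higher and 0.415% lower. With C replicate 2 left out, the median in DM-22 compared to C was -0.15. In that fit 2 of the 18 (11.1%) were again lower at an unadjusted p under 0.05, but so were 14.8% of all genes. Without DM+SGLT2i replicate 1 the median in DM+SGLT2i compared to DM-22 was 0.47, and all 18 enzymes were then above 0, against 52.4% of all genes. That fit rests on DM+SGLT2i replicate 2 alone, the higher of the 2 treated libraries. There 17 of the 18 enzymes were above their mean over the 7 libraries, against 10 in replicate 1.

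Hmgcs1 was the most abundant of these enzymes per length of transcript. It lay at 538, 567 and 607 CPM in C, at 387 and 396 CPM in DM-22 and at 529 and 552 CPM in DM+SGLT2i. The DM-22 libraries were below all others, while the treated and control libraries overlapped. In DM-22 compared to C, the log2 fold change was -0.54 ± 0.16 (SE) (limma, unadjusted p = 0.0115, adjusted p = 0.804) and 0.46 ± 0.17 in DM+SGLT2i compared to DM-22 (limma, unadjusted p = 0.0316, adjusted p = 0.881).

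Dhcr7 and Hsd17b7, both reductases of late steps, were also lowest in the DM-22 libraries. Dhcr7, which makes cholesterol in its final step, lay at 44.3, 32.0 and 26.6 CPM in C, at 20.1 and 25.9 CPM in DM-22 and at 35.4 and 41.1 CPM in DM+SGLT2i. The gap between C replicate 9 and DM-22 replicate 2 was small. Its log2 fold change was 0.73 ± 0.26 (SE) in DM+SGLT2i compared to DM-22 (limma, unadjusted p = 0.0299, adjusted p = 0.881) and -0.55 ± 0.24 in DM-22 compared to C (limma, adjusted p = 0.804), where it was -0.35 without C replicate 2. Hsd17b7, a ketosteroid reductase of the same pathway, varied little within groups, at 35.1, 32.3 and 32.4 CPM in C, 28.1 and 26.4 CPM in DM-22 and 33.3 and 37.8 CPM in DM+SGLT2i. Compared to DM-22, the log2 fold change in DM+SGLT2i was 0.37 ± 0.14 (SE; limma, unadjusted p = 0.0348, adjusted p = 0.881).

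Sc5d, a sterol desaturase, did not share this pattern. It lay at 34.5, 61.3 and 60.5 CPM in C, at 29.6 and 34.3 CPM in DM-22 and at 34.0 and 37.0 CPM in DM+SGLT2i. C replicate 2 was level with the diabetic libraries, and the treated and untreated libraries overlapped. Compared to C, the log2 fold change in DM-22 was -0.65 ± 0.27 (SE; limma, unadjusted p = 0.0466, adjusted p = 0.804), and without C replicate 2 it was -0.92 (limma, unadjusted p = 0.000372, adjusted p = 0.0826). For DM+SGLT2i compared to C it was -0.50, and -0.77 without C replicate 2 (limma, unadjusted p = 0.000950, adjusted p = 0.0899).

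Several enzymes of the middle of the pathway varied widely between libraries of one group. Fdps, the farnesyl diphosphate synthase, lay at 89.4 CPM in C replicate 2 and at 23.6 and 22.5 CPM in the other controls, at 24.8 and 32.0 CPM in DM-22 and at 41.9 and 52.2 CPM in DM+SGLT2i. Its log2 fold change in DM+SGLT2i compared to C was therefore 0.36 with all controls and 1.003 without C replicate 2. Msmo1, a methylsterol oxidase, had the same shape, at 84.8, 30.9 and 32.6 CPM in C, 24.7 and 31.5 CPM in DM-22 and 41.4 and 60.5 CPM in DM+SGLT2i. Cyp51, the lanosterol demethylase, was at 386 CPM in DM-22 replicate 1 and 96.1 CPM in DM-22 replicate 2, and spanned 147 to 328 CPM in the other 5 libraries. Sqle, the squalene epoxidase, differed in the same direction between the DM-22 libraries, at 114 and 55.9 CPM, and Fdft1, the squalene synthase, at 53.8 and 27.9 CPM. For Cyp51 and Sqle the 2 DM-22 libraries thus differed by over 2-fold, which exceeded the difference between the group means. Fdft1 and Acss2 overlap highly expressed genes on the opposite strand, Ctsb and Gss. Mvd overlaps Gm20388, at 82.7 to 94.6 CPM, and Cyp51 overlaps Akap9, at 48.3 to 95.1 CPM, also on the opposite strand. Srebf1 overlaps Rai1 in the same way, at 20.9 to 41.1 CPM, and Tm7sf2 overlaps Vps51 on its own strand. Since the strand setting of the counting was not given in the sources used here, the values of these 6 members are uncertain.

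Of the remaining enzymes of this group, Idi1 and Lss were lower in both DM-22 libraries than in every control. Idi1, the isopentenyl diphosphate isomerase, was at 95.5 and 98.2 CPM in DM-22 and between 117 and 134 CPM in C, with a log2 fold change of -0.38 and a 95% interval from -0.78 to 0.01. Lss was at 20.1 and 24.0 CPM in DM-22, between 25.2 and 39.3 CPM in C and at 31.7 and 31.8 CPM in DM+SGLT2i. The log2 fold change of Lss was -0.46 ± 0.21 (SE) in DM-22 compared to C (limma, adjusted p = 0.804), -0.27 there without C replicate 2, and 0.52 ± 0.23 in DM+SGLT2i compared to DM-22 (limma, adjusted p = 0.881). Mvk and Pmvk, the mevalonate and phosphomevalonate kinases, Mvd, the decarboxylase that follows them, Tm7sf2, a sterol reductase, and Acat2, an acetyl-CoA thiolase, overlapped between DM-22 and both other groups. Nsdhl, a sterol dehydrogenase, overlapped between DM-22 and C. Ebp, a sterol isomerase, was at 91.1 and 81.8 CPM in DM-22 and between 65.1 and 76.0 CPM in C, and was thus 1 of the 3 members higher in DM-22 than in C without overlap. Acat2 is closely similar to its neighbour Acat3, which lay between 50.4 and 110 CPM, and reads may have been split between them.

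**Figure D4:**
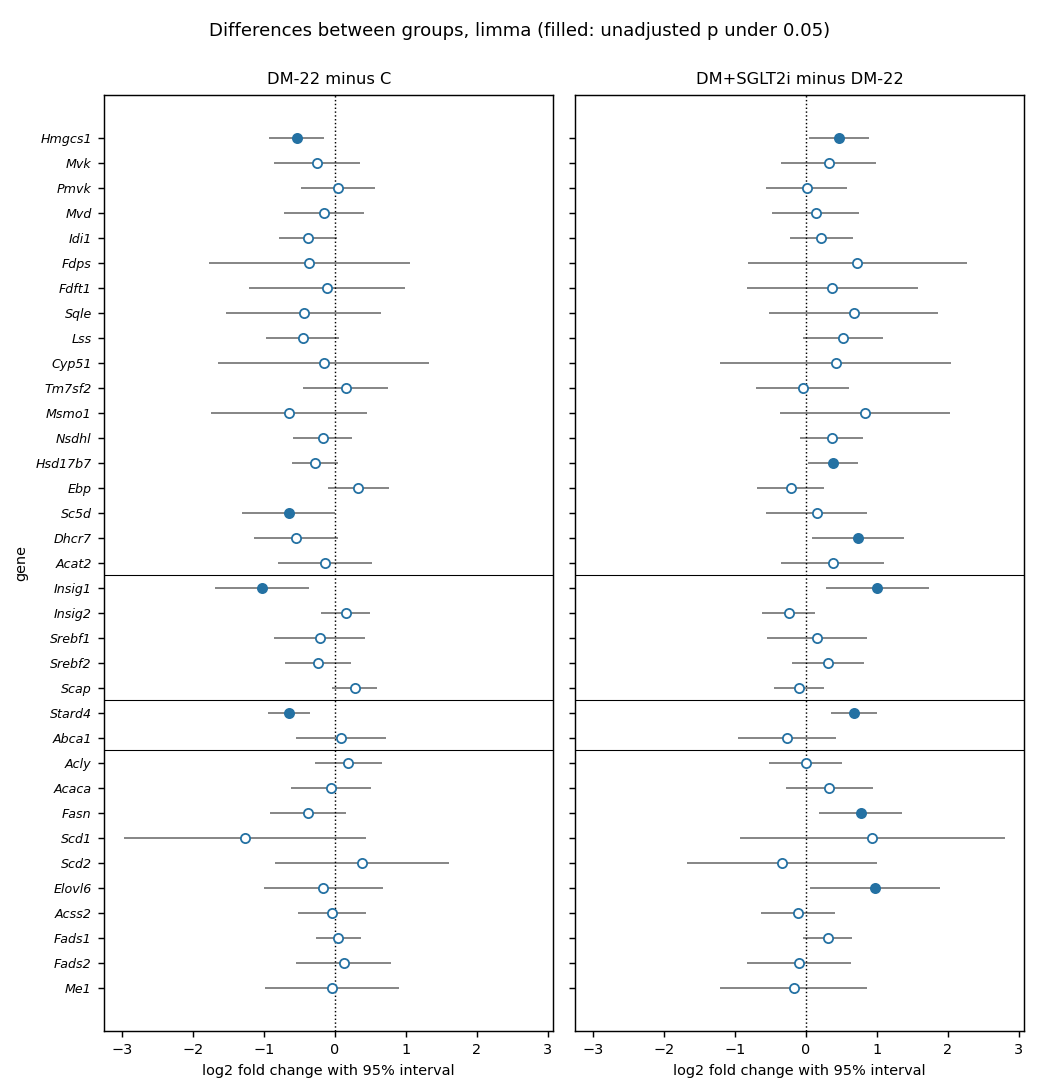
Log2 fold change of each of the 35 genes with its 95% interval from limma, in DM-22 compared to C (left) and in DM+SGLT2i compared to DM-22 (right), with lines between the roles in the order sterol enzymes, regulators, sterol transport and fatty acid enzymes. Filled points had an unadjusted p under 0.05, 4 on the left and 7 on the right, and none had an adjusted p under 0.05; both panels share the DM-22 libraries.

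The 10 fatty acid enzymes had no common direction in DM-22. Their median log2 fold change was -0.05 in DM-22 compared to C, with 6 of 10 below 0 and a range from -1.27 (Scd1) to 0.38 (Scd2), and 0.15 in DM+SGLT2i compared to DM-22, with 5 of 10 above 0. Against C, the median in DM+SGLT2i was 0.11, with 7 of 10 above 0. At an unadjusted p under 0.05, 0 of the 10 were called in the first comparison, against 3.28% of all genes lower and 1.19% higher. Fasn and Elovl6 were higher in the second (20% of the 10), against 2.25% of all genes, and Fads1 in the third (10%), against 0.665%.

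Fasn, the fatty acid synthase, lay at 99.98, 139 and 101 CPM in C, at 81.6 and 90.2 CPM in DM-22 and at 174 and 123 CPM in DM+SGLT2i. Its highest value was in DM+SGLT2i replicate 1, the library with adipocyte markers, as was that of Acaca at 58.5 CPM. The log2 fold change of Fasn in DM+SGLT2i compared to DM-22 was 0.77 ± 0.24 (SE; limma, unadjusted p = 0.0162, adjusted p = 0.881), and without DM+SGLT2i replicate 1 it was 0.52 (limma, unadjusted p = 0.103). Acaca was at 42.7 CPM in DM+SGLT2i replicate 2, within the range of 33.1 to 48.9 CPM of the controls.

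Elovl6, which lengthens the palmitate that Fasn makes, was high in both treated libraries. It lay at 45.5 and 43.0 CPM in DM+SGLT2i and at 24.7 and 20.1 CPM in DM-22, while C replicates 8 and 9 were at 19.1 and 19.8 CPM and C replicate 2 at 41.8 CPM. Its level in DM+SGLT2i replicate 2, which was low in adipocyte markers, was thus close to that in replicate 1. The log2 fold change was 0.97 ± 0.38 (SE) in DM+SGLT2i compared to DM-22 (limma, unadjusted p = 0.0387, adjusted p = 0.881). In DM+SGLT2i compared to C it was 0.80 ± 0.34 with all controls (limma, adjusted p = 0.9997) and 1.17 without C replicate 2 (limma, unadjusted p = 0.000191, adjusted p = 0.0685).

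Fads1, a desaturase of polyunsaturated fatty acids, was the gene with the smallest p among members in DM+SGLT2i compared to C. It lay at 120, 134 and 118 CPM in C, at 130 and 125 CPM in DM-22 and at 151 and 164 CPM in DM+SGLT2i. Treated libraries were above all others, and DM-22 lay within the controls. The log2 fold change compared to C was 0.35 ± 0.13 (SE; limma, unadjusted p = 0.0316, adjusted p = 0.9997). The neighbouring desaturase gene Fads2 differed from it, at 77.7, 148 and 131 CPM in C and between 115 and 131 CPM in the 4 diabetic libraries.

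Scd1 and Scd2, which place a double bond in saturated fatty acids, went opposite ways between the 2 DM-22 libraries. Scd1 lay at 203, 436 and 273 CPM in C, at 285 and 49.7 CPM in DM-22 replicates 1 and 2, and at 198 and 263 CPM in DM+SGLT2i. Scd2 was at 125 CPM in DM-22 replicate 1 and 275 CPM in replicate 2, against 254, 117 and 97.3 CPM in C. The log2 fold change of Scd1 in DM-22 compared to C was -1.27 with a 95% interval from -2.97 to 0.42, so that no difference could be resolved. Acly and Acss2, which supply acetyl-CoA from citrate and from acetate, overlapped between all groups. Me1 was at 347 CPM in C replicate 2 and at 783 and 748 CPM in the other controls, with 475 to 681 CPM in the 4 diabetic libraries. Its difference from C in DM+SGLT2i was -0.23 on the log2 scale with all controls and -0.61 without C replicate 2.

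A second list of 44 genes, the machinery around these pathways, showed no common direction. It held 7 genes of SREBP processing, 12 of sterol handling and LXR, 6 of the isoprenoid branch and 19 of fatty acid and glycerolipid synthesis, all of them tested. At an adjusted p under 0.05, 0 of 44 were called in any comparison (limma). In DM-22 compared to C, 1 (2.27%) was higher and 2 (4.55%) were lower at an unadjusted p under 0.05, against 1.19% and 3.28% of all genes, and the median log2 fold change was 0.06. In DM+SGLT2i compared to DM-22, 1 was higher and 1 was lower (2.27% each), against 2.25% and 1.66%, with a median of -0.06, and in DM+SGLT2i compared to C there were 0, against 0.665% and 0.415%. Without C replicate 2 the counts in the first comparison were 5 (11.4%) higher and 7 (15.9%) lower, close to the 10.4% and 14.8% of all genes.

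Mylip, a ubiquitin ligase induced by LXR that removes lipoprotein receptors from the cell surface, had the smallest p of this list in both comparisons with DM-22. It lay at 43.5, 55.5 and 46.8 CPM in C, at 32.3 and 36.9 CPM in DM-22 and at 55.8 and 54.0 CPM in DM+SGLT2i. Its log2 fold change was -0.48 ± 0.15 (SE) in DM-22 compared to C (limma, unadjusted p = 0.0164, adjusted p = 0.804) and 0.66 ± 0.16 in DM+SGLT2i compared to DM-22 (limma, unadjusted p = 0.00571, adjusted p = 0.881). Mlxipl, the glucose-responsive factor ChREBP, which drives fatty acid synthesis genes, lay at 38.8, 118 and 125 CPM in C, at 27.8 and 32.4 CPM in DM-22 and at 78.0 and 45.1 CPM in DM+SGLT2i. Its log2 fold change in DM-22 compared to C was -1.45 ± 0.53 (SE; limma, unadjusted p = 0.0300, adjusted p = 0.804).

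Promoters of the members were searched for letters that SREBP and its partners recognize. RefSeq windows of 250 bases before to 50 bases after a transcript start were at hand for 28 of the 35 genes. The sterol regulatory element letters TCACNCCAC, on either strand, were in 1 of the 28 (Hmgcs1), against 1.44% of the 27025 genes with a window. CCAAT, the box of the SREBP partner NF-Y, was in 22 of 28 (78.6%), against 41.1% of all genes. GGGCGG, the GC box bound by Sp1, was in 24 of 28 (85.7%), against 38.2%. The 27025 genes were not limited to those expressed in these kidneys, whereas every member was expressed. The shares are thus of unlike sets, and the part of expression in the gap was not tested. A match of letters does not show that a factor binds there, and functional elements often depart from these letters.

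The 150 bases before the start are shown 5′ to 3′ on the gene's strand for 4 of the members that were lowest in DM-22. These are a sterol gene, a regulator, a late sterol enzyme and a fatty acid gene. Dhcr7 and Lss, also lowest there, are not shown. Stard4, lowest there too and the member with the smallest p in both comparisons with DM-22, had no window and was not searched. The stretch read for Dhcr7 held 1 GC box but no CCAAT box and no sterol element. The sequences shown are from RefSeq on GRCm38.p6, and capitals mark any match to the 3 motifs on either strand. In Hmgcs1 (chr13:119690201-119690350, plus strand) the sterol element begins at position -137, counted back from the start, with 1 CCAAT box and 2 GC boxes downstream. Hsd17b7 (chr1:169969206-169969355, minus strand) has 1 GC box and 2 CCAAT boxes in reverse, Fasn (chr11:120824548-120824697, minus strand) has 3 CCAAT boxes, of which 1 pair on opposite strands overlap, and Insig1 (chr5:28071262-28071411, plus strand) has 1 GC box in this stretch.
Hmgcs1: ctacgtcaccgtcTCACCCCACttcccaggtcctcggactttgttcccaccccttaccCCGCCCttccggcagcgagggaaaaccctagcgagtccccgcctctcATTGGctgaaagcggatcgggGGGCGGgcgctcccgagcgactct
Insig1: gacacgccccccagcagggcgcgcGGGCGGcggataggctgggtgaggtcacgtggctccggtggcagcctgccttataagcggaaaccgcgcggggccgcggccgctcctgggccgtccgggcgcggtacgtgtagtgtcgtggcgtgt
Hsd17b7: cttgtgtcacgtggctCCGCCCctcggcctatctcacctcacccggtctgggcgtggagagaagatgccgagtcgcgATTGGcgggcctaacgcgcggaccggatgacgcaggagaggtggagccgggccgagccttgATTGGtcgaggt
Fasn: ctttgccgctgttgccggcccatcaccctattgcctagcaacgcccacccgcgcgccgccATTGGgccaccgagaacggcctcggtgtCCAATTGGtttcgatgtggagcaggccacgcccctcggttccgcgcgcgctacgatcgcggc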

How the data were processed

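Group names and replicate numbers came from the labels, and all 7 columns were used. The authors deposited log2 values: read counts per library total, TMM-normalized, with a small constant added. The authors' processing notes name bcl2fastq, FastQC, Trim Galore, STAR, edgeR and the build mm10; versions and the strand setting were not given in the sources used here. The design assumed CPM, but the values go down to -4.66 in every library and are logarithms. Powers of 2 were therefore taken and the floor's power subtracted, which gave CPM. Converted to reads, 100% of values up to 200 reads were whole within 0.1. Libraries held 46456125 to 56541594 reads, and 1 read equals 0.0180 to 0.0231 CPM.

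For the 13976 genes reaching 1 CPM in 2 or more libraries, log2(CPM + 0.5) was tested by limma (version 3.58.1, R 4.3.3, trend), the 3 groups in one fit, two-sided, adjusted by Benjamini-Hochberg. Fold changes are on that scale, and ratios of means are of CPM. The labels name separate samples without saying how each animal was handled, so p-values measure only the spread between these samples, which may be technical. The script was tested on simulated data. Members, roles, motifs and lists were chosen with earlier results of these data known. Values per library are given for the members with the smallest p in each comparison (6 in DM+SGLT2i compared to DM-22, 4 in DM-22 compared to C and 3 in DM+SGLT2i compared to C), the regulators, Abca1, Fasn, Scd1 and Stard4; other members named with values were chosen after their values were seen. Markers of proximal tubule, thick ascending limb, podocytes, adipocytes and adrenal cortex were summed in CPM, and clock genes given singly. Gene positions and exon lengths are from GENCODE M21 on GRCm38. Alternatives were another pseudocount, the deposited log2 values, no filter, other scalings, 2 groups alone, leaving out each library and a replicate block. 7 members without a promoter window were not searched.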

Additional observations from a re-analysis of the deposited data

How the results depend on the processing

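No member passed the adjusted threshold in any fit that left out a library or changed the scaling, and single libraries moved several counts. Leaving out each library in turn, the members' median log2 fold change ranged from -0.278 to -0.160 in DM-22 compared to C, from -0.016 to 0.173 in DM+SGLT2i compared to C and from 0.194 to 0.415 in DM+SGLT2i compared to DM-22, and the members at an unadjusted p under 0.05 numbered 3 to 6, 0 to 6 and 2 to 10. The lowest count in the last comparison, 2, came when either DM+SGLT2i library was left out, and the count was 3 without DM-22 replicate 1. Against C without C replicate 2, 4 members (11.4%) were higher in DM+SGLT2i and 2 (5.71%) were lower. The shares of all genes were 8.73% and 9.14%. Without C replicate 8, 2 members (5.71%) were higher, against 0.343% of all genes. Without C replicate 9 there were 0, against 0.207% of all genes higher and 0.129% lower. A fit that leaves 1 library in a group assumes that it varies like the others.

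Scaling to library totals without TMM factors gave 8 lower members (22.9%, against 4.82% of all genes) in DM-22 compared to C and 11 higher ones (31.4%, against 3.18%) in DM+SGLT2i compared to DM-22, with a median of 0.42 there. That scaling moved the median of all genes in DM+SGLT2i compared to DM-22 to 0.106, so that the members stood 0.315 above it (0.313 with TMM factors), and moved the share of higher among all genes at an unadjusted p under 0.05 from 57.6% to 86.6%; in DM-22 compared to C the share moved from 26.6% to 6.64%. Apart from this scaling and the fits that left out a library, alternatives of the counts and medians stayed within 1.5 times or the spread between replicates.

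Among named members with an unadjusted p under 0.05, 38 of 175 alternatives lost it and 0 turned the sign. Stard4 held it in 14 of 14 alternatives compared to C (p from 0.000686 to 0.00878) and in 15 of 15 compared to DM+SGLT2i (p from 0.000846 to 0.0110), and Insig1 in 14 of 14 compared to C (p from 0.00156 to 0.0460), all by limma. Compared to DM+SGLT2i, Insig1 held it in 12 of 15 (p up to 0.0644), Fasn in 13, Dhcr7 in 12, Elovl6 in 11, Hsd17b7 in 8 and Hmgcs1 in 7. Compared to C, Hmgcs1 held it in 13 of 14 and Sc5d in 7, and Fads1 in DM+SGLT2i in 11.

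DM-22 and DM+SGLT2i share replicate numbers 1 and 2, and the labels do not say whether these pair the samples. Across genes, the difference between replicates 1 and 2 in DM-22 was uncorrelated with that in DM+SGLT2i (r = -0.0412). That value cannot decide whether samples were paired, since single libraries also differed in tubule and adipocyte markers. A fit with the replicate block gave the same median of 0.317, and Hmgcs1 and Hsd17b7 lost their p under 0.05.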
